A study of Drosophila melanogaster with 2 samples.

Results

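The genes described here are 10 neural differentiation genes of Drosophila melanogaster, out of 18277 annotated genes: elav, fne, Rbp9, pros, repo, ase, dpn, nSyb, Syt1 and Syx1A. They were listed by name, with earlier results of these data known. For each gene, the gene body with 5 kb on each side was searched for the summits of peaks of BuGZ (CG17912), a zinc finger protein whose known partner is Bub3 of the spindle checkpoint. Of 2413 reproducible peaks, 10 had their summit in these regions: 3 at elav, 1 beside Rbp9, 3 at pros and 3 around Syx1A. None lay around fne, repo, ase, dpn, nSyb or Syt1.

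Chromatin immunoprecipitation with sequencing was run on whole embryos of both sexes, 0 to 16 h old, of a transgenic line that stably expressed CG17912 with GFP at its C terminus. The series held 1 group of 2 replicates, both with this transgene, so no condition was compared with another and no test between samples was possible. The promoter that drove the transgene is not given in the sources used here. The sample descriptions speak of input controls, but the antibody label names CG17912 and the peaks were called against control alignments from elsewhere. The libraries were therefore treated as immunoprecipitates, which the sources do not settle. The authors deposited 30000 candidate regions for each replicate, 30000 for the replicates pooled, and the reproducible list, which was identical to the 2413 highest regions of the pooled list. Read depth was unknown here. Each region carries the authors' signal value, on a scale that was not stated, and regions are given by their rank on it in each list, rank 1 being the highest. Signal values of the reproducible peaks ran from 101 to 1538, with a median of 134. In whole embryos, occupancy in a few cells and weak occupancy in many cells cannot be told apart.

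In the fly nervous system, neuroblasts divide asymmetrically to renew themselves and to give ganglion mother cells, which divide into neurons or glia. Deadpan and Asense act in neuroblasts, Prospero passes into the ganglion mother cell and ends self-renewal there, and Repo directs glial fate. The ELAV family of RNA-binding proteins sets neuronal splicing and the choice of mRNA 3' ends, and Synaptobrevin, Synaptotagmin and Syntaxin carry out the fusion of synaptic vesicles.

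Sequences at or beside 6 of the reproducible summits are shown, which lay in elav or pros or next to the starts of elav and Syx1A. All are from the RefSeq genome sequence of Release 6 (dm6), plus strand, 5′ to 3′: chrX:523358-523558, chrX:522527-522727 and chrX:521770-521970 for elav, chr3R:11338376-11338576 for pros, and chr3R:24105764-24105843 and chr3R:24106300-24106500 for Syx1A. Each covers 100 bases on either side of the summit, except the 80 bases at the Syx1A start, which begin 21 bases to the right of the summit because annotated UTR sequence was left out. Capitals mark, on either strand, the letters CGATA (the core of the BEAF-32 insulator motif), GAGAG (GAGA factor), GGTCACAC (the core of the M1BP motif), CACACA repeats and TATAAA.
elav rank 89: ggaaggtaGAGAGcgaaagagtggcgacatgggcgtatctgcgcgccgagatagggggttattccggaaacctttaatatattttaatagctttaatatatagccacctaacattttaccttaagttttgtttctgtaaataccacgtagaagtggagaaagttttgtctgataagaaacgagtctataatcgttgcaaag
elav rank 616: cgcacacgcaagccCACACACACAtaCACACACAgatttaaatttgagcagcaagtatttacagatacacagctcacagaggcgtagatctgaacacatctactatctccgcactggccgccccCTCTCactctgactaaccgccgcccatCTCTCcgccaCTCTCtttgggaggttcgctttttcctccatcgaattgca
elav rank 1570: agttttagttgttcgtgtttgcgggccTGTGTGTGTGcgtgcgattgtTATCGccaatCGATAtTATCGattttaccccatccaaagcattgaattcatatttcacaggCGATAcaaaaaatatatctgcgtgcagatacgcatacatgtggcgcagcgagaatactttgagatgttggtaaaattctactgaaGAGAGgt
pros rank 2152: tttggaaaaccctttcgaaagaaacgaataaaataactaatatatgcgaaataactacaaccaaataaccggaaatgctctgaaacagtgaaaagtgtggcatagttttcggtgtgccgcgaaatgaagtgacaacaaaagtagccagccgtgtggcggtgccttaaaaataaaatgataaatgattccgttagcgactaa
Syx1A rank 1885: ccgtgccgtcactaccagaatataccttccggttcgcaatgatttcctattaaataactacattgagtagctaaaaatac
Syx1A rank 2318: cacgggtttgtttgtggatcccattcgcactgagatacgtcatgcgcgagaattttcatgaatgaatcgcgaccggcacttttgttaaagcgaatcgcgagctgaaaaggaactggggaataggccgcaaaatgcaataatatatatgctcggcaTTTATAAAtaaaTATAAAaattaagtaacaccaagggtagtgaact
The 3 elav sequences differ in what they hold: a single GAGAG at rank 89, CACACA runs and GAGAG at rank 616, and 4 CGATA matches beside CACACA and GAGAG at rank 1570. The pros sequence holds none of the marked motifs. At Syx1A the TATAAA matches lie in the upstream sequence at rank 2318.

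elav, which encodes the RNA-binding protein used as the standard marker of postmitotic neurons (FBgn0260400, X, 509235 to 523226, minus strand), carried the strongest of the 10 peaks. Its signal value was 386, which ranked it 89 of 2413, and the summit at position 523458 lay 232 bp upstream of the start site that elav shares with the noncoding RNA lncRNA:enrr. This peak ranked 197 in replicate 1 and 44 in replicate 2. The transcription unit of arg, which encodes arginase, extends over the same sequence.

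A second elav peak, with a signal value of 177 (rank 616), had its summit 599 bp inside the gene, in the intron. It ranked 347 in replicate 1 and 2171 in replicate 2. The third elav peak, with a signal value of 121 (rank 1570), lay 1356 bp inside the gene, also in an intron, and ranked 3327 in replicate 1 and 1915 in replicate 2. The replicates thus placed the start-site peak highest, and they differed in the order of the intronic pair. Successive summits were 831 and 757 bp apart. Each of the 3 had 2 other reproducible summits within 2 kb, which held for 88 of all 2413 reproducible summits (3.65%). Replicate 2 alone listed a further candidate 408 bp upstream of the start, at rank 2500.

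**Figure D1:**
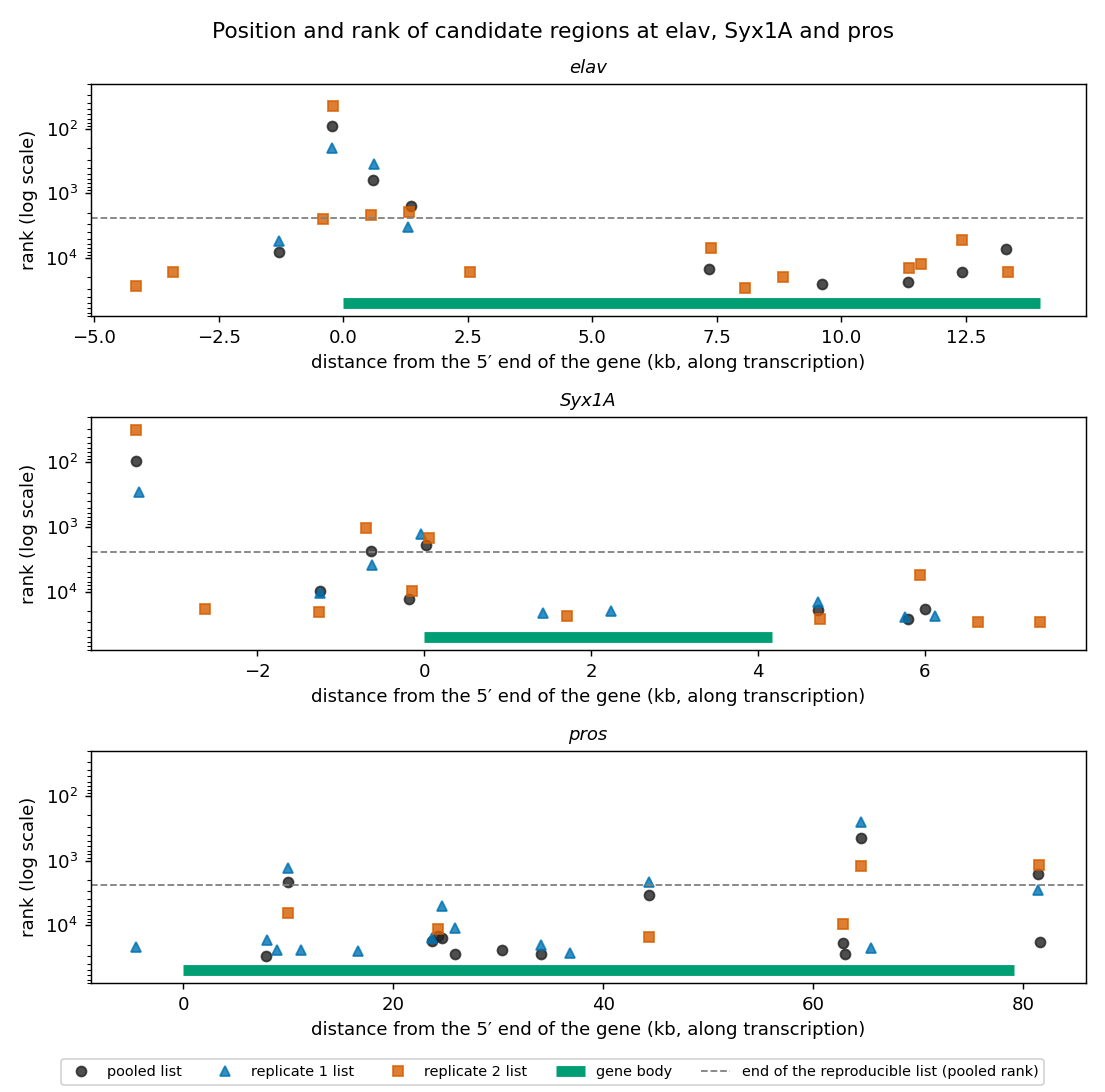
Candidate regions around elav, Syx1A and pros, plotted by distance from the 5′ end of the gene in kb (horizontal axis) and by rank on a logarithmic scale (vertical axis, highest rank on top), with 1 symbol for each list. Pooled regions above the dashed line are the reproducible ones, and the bar is the gene body. The 3 elav peaks sit within 1356 bp of the start site, whereas those of pros are spread over the gene and its downstream neighbour.

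The map of summits around elav, pros and Syx1A places these peaks on the genes. The other ELAV family genes had no reproducible peak at their own start. Rbp9 encodes a neuronal family member that also acts in the ovary (FBgn0010263, 2L, 2954762 to 2968434, plus strand). The single reproducible summit of its region, with a signal value of 122 (rank 1522), lay 13634 bp from the nearest Rbp9 start and 110 bp from that of gammaTub23C, the gene of a gamma-tubulin. It ranked 2454 in replicate 1 and 1656 in replicate 2, and both replicate summits lay within 250 bp of the starts of gammaTub23C and Rrp1. Rbp9 has 3 annotated starts, and the replicates listed candidates at different ones. The pooled list (rank 20464, 60 bp upstream) and replicate 1 (rank 10148, 70 bp upstream) had theirs at the same start, and replicate 2 (rank 22611, 5 bp upstream) at another. The highest candidate inside Rbp9 in any list was in replicate 1, at rank 4235, in the 5' UTR 343 bp from a start, and replicate 2 listed no region within 200 bp of it.

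fne, found in neurons, encodes the remaining family member (FBgn0086675, X, 12917477 to 12950417, plus strand), and its highest candidate lay in its 3' UTR, 6598 bp from the nearest fne start. That candidate ranked 2993 in the pooled list, and the highest fne candidates of the replicates ranked 3112 in replicate 1 and 3306 in replicate 2. All 3 ranks were outside the 2413 highest. Within 250 bp of an fne start, only replicate 2 listed a candidate, at rank 26958.

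pros, which encodes the homeodomain protein that ends self-renewal in ganglion mother cells (FBgn0004595, 3R, 11328480 to 11407627, plus strand), held 2 reproducible summits in its body and 1 beyond its end. The strongest had a signal value of 206 (rank 440) and its summit at position 11393003, and ranked 257 in replicate 1 and 1206 in replicate 2. It lay in the 3' UTR, 905 bp after the start of that UTR and 193 bp before the nearer annotated 3' end, which 2 transcripts use at position 11393196. Of the other pros transcripts, 1 ends 2074 bp and 3 end 14624 bp beyond the summit, the last with a 3' UTR of 15530 bp. Only 20 of the 2413 reproducible summits (0.829%) lay in a 3' UTR.

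The pros summit whose sequence is shown above lay in an intron 3496 bp from the nearest pros start, with a signal value of 106 (rank 2152). It ranked 1291 in replicate 1 and 6600 in replicate 2, so replicate 2 alone would not have placed it among its 2413 highest regions. The remaining summit, with a signal value of 120 (rank 1603), lay outside the gene, 19 bp from the start of mgr, a prefoldin subunit gene that neighbours the DNA repair gene Irbp. It ranked 2878 in replicate 1 and 1174 in replicate 2. Within 25 bp of an internal pros start lay a candidate that ranked 3473 in the pooled list, 2120 in replicate 1 and 15374 in replicate 2.

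The neuroblast factors ase and dpn had the fewest candidates. ase encodes a basic helix-loop-helix protein of the achaete-scute complex (FBgn0000137, X, 460747 to 463176, plus strand). Its region held 1 candidate in each list, at ranks 23460 (pooled), 27286 (replicate 1) and 16897 (replicate 2), all in an intron of CG32816. They marked different places, at 2873, 5675 and 3721 bp from the ase start. dpn encodes a Hairy-related repressor needed for neuroblast self-renewal (FBgn0010109, 2R, 8228971 to 8232330, minus strand). Its region held 1 pooled candidate, at rank 22400 and 57 bp from the start of the septin gene pnut, none in replicate 1, and 1 in replicate 2, at rank 9774 and 1241 bp upstream of dpn. Each candidate list was capped at 30000 regions, so ranks near that number are those of background, and an unlisted region may have stood below the cap.

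repo, the homeodomain gene of nearly all glia outside the midline (FBgn0011701, 3R, 18236192 to 18239602, plus strand), had no candidate inside its body in any list. The highest candidates of its flanks ranked 2498 in the pooled list, 1349 in replicate 1 and 1672 in replicate 2. In the pooled list and in replicate 2 they lay at the start of CG7156, at 21 and 9 bp, and in replicate 1 in an intron of 14-3-3epsilon. The flanks of repo thus ranked within the 2413 highest regions of each replicate, but not of the pooled list.

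Among the synaptic genes, Syx1A, which encodes the plasma membrane SNARE protein of vesicle fusion (FBgn0013343, 3R, 24101600 to 24105763, minus strand), was the one with reproducible peaks in its region. One of them lay at its own start site, 20 bp inside the gene, with a signal value of 112 (rank 1885), and ranked 1285 in replicate 1 and 1496 in replicate 2. A second, 637 bp upstream of the start, had a signal value of 103 (rank 2318) and ranked 3900 in replicate 1 and 1040 in replicate 2. Syx1A is nested in eIF4EHP, the gene of a cap-binding translational repressor, whose intron holds the upstream summit. The strongest peak of the region had a signal value of 373 (rank 96) and ranked 287 in replicate 1 and 31 in replicate 2. It lay 3455 bp upstream of Syx1A and 118 bp from the start of CG18428. Its replicate 1 summit lay within 250 bp of the starts of both CG18428 and eIF4EHP.

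In the plot of ranks by gene, the other synaptic genes had no pooled candidate above the end of the reproducible list. They had their highest pooled candidates at the starts of neighbours. nSyb, the neuronal synaptobrevin gene (FBgn0013342, 3L, 1630348 to 1637752, minus strand), had its highest candidate at the start of Bgb, a gene of a Runt-domain cofactor, at rank 5444 in the pooled list and 3807 in replicate 1. In replicate 2 the highest lay in the 5' UTR of nSyb, 738 bp from the start, at rank 3976. Syt1, the gene of the calcium sensor of transmitter release (FBgn0004242, 2L, 2772327 to 2799979, minus strand), had its highest candidate 23 bp from the start of colt at rank 5906 in the pooled list. In the replicates it lay at HINT1, at rank 4086 in replicate 1 and 7045 in replicate 2. A weaker candidate in the Syt1 3' UTR ranked 7995 in the pooled list, 6829 in replicate 1 and 29989 in replicate 2.

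**Figure D2:**
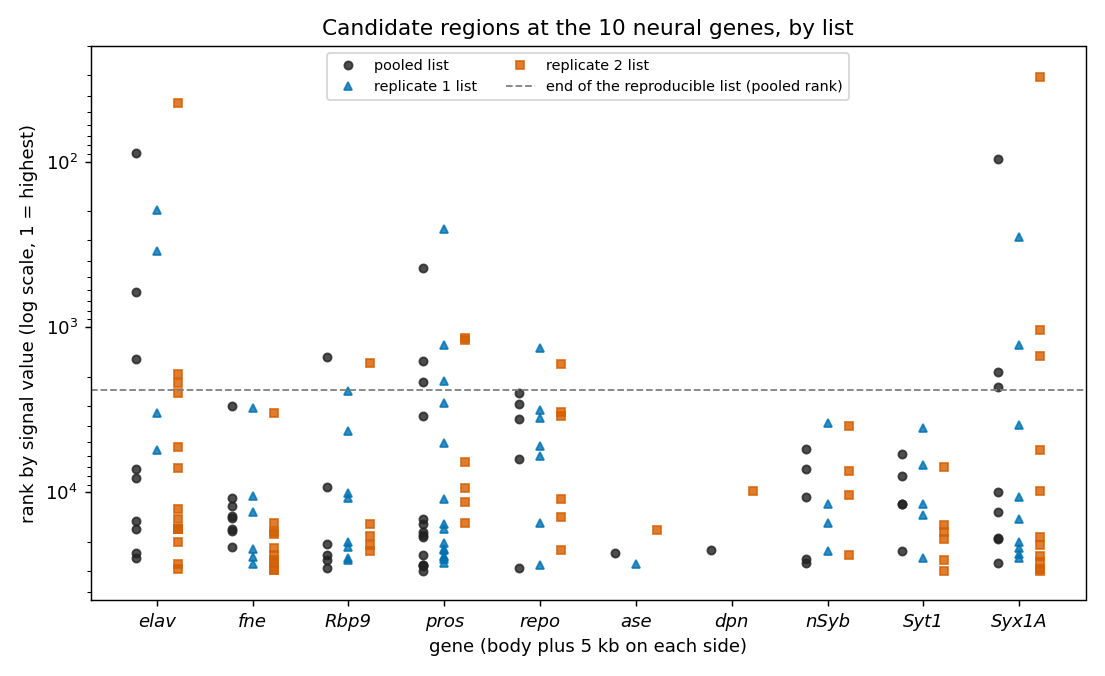
Rank of every summit and candidate in the region of each gene (body plus 5 kb), for the pooled list and each replicate, on a logarithmic rank axis with the dashed line at the end of the reproducible list. In the pooled list elav and the Syx1A region reach the highest ranks, 89 and 96, and the single candidates of ase and dpn lie at 23460 and 22400. In replicate 2 the Syx1A region reaches rank 31 and elav rank 44.

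Set against all genes, the 10 genes were near the background by region and at their starts. A reproducible summit lay in the body plus 5 kb of 4 of the 10 (elav, Rbp9, pros and Syx1A), against 32.3% of all genes. That share of all genes was 29.3% for regions under 15 kb and 44.1% from 15 to 30 kb. It was 45.5% from 30 to 60 kb and 44.9% over 60 kb. A reproducible summit within 250 bp of a start site was present at 2 of the 10 (elav and Syx1A), against 9.43% of all genes. The same 2 were the gene with the nearest start to a reproducible summit, against 11.2% of all genes. A pooled candidate within 250 bp of a start lay at 4 of the 10, elav, Rbp9, pros and Syx1A, against 40.7% of all genes. The same 4 genes had such a candidate in both replicate lists, against 27.6% of all genes. Replicate 1 alone gave these 4 (36.3% of all genes), and replicate 2 alone gave 5, with fne added (40.1%). The count for both replicates is by gene, and for Rbp9 the replicate candidates lay at different starts. The bar plot of these shares gives the 7 rules side by side. With counts this small, 1 gene more or fewer moves these shares by much, and no difference from all genes is read from them.

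A reproducible summit lay inside the gene body at 3 of the 10 genes (elav, pros and Syx1A), against 6.53% of all genes. The same 3 genes had 3 or more reproducible summits in their region, against 2.95%. The count at pros includes the summit at the start of mgr, and that at Syx1A the summit at the start of CG18428. Only elav reached 3 without a neighbour's start. The share over all genes counts summits at neighbours in the same way. Among protein-coding genes the shares were 7.75% for the body and 3.38% for 3 or more summits. Gene length moves with both counts. The median region was 20.5 kb for the 10 genes and 11.6 kb for all genes. The share of genes with a reproducible summit in the body was 3.1% for regions under 15 kb, 17.7% from 15 to 30 kb, 25.9% from 30 to 60 kb and 29.8% over 60 kb. Syx1A falls in the shortest class, elav in the next and pros in the longest. For 3 or more reproducible summits the shares over the same classes were 1.99%, 5.69%, 9.02% and 11.4%.

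**Figure D3:**
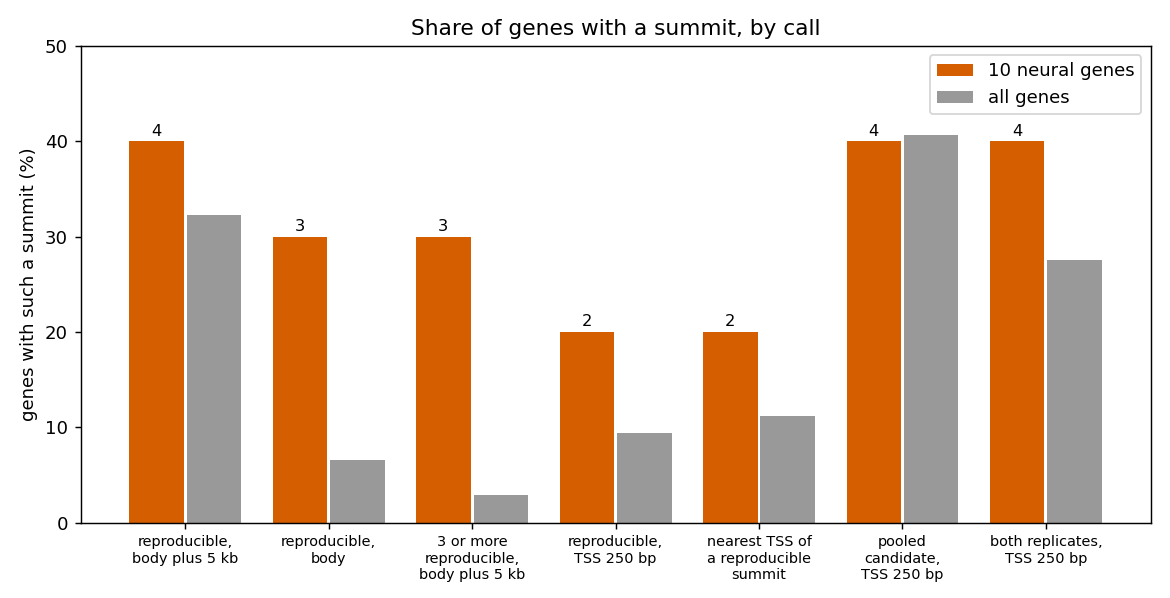
Percent of the 10 neural genes (orange, with their number above) and of all 18277 genes (grey) that met each rule, on an axis from 0. The bars for a gene body and for 3 or more summits differ most, at 3 of 10 genes against 6.53% and 2.95% of all genes. For 3 or more summits, pros and Syx1A are counted with the summits at the starts of their neighbours mgr and CG18428.

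The 10 regions together span 288 kb and held 62 pooled candidates, which is 21.5 per 100 kb, against 21.8 per 100 kb over the 7 main chromosomes. In the replicates the regions held 59 (20.5 per 100 kb, replicate 1) and 64 (22.2 per 100 kb, replicate 2), against 21.8 in each. Among the genes the pooled number per 100 kb ran from 7.49 at dpn and 8.05 at ase to 37.5 at elav and 56.5 at Syx1A. For reproducible summits it was 3.47 per 100 kb in the neural regions and 1.75 over the chromosomes. The first value rests on 10 summits in the regions of 4 genes, 3 of them at the starts of neighbours. The second takes in all sequence of the chromosomes, near genes or not, so no difference is read from these values. The distance from a start to the nearest pooled candidate had a median of 1269 bp for the 10 genes and 512 bp for all genes. It was 1517 against 637 bp in replicate 1, but 469 against 524 bp in replicate 2, so the order of the medians differed between replicates.

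The position of summits differed from gene to gene. Of the 10 reproducible summits, 5 lay within 250 bp of a start site, 2 at elav and Syx1A and 3 at the neighbours gammaTub23C, mgr and CG18428. A further 4 lay in introns and 1 in the 3' UTR of pros. Over all reproducible peaks, 56.2% lay at a start site, 28.5% in introns and 10.9% between genes. In a comparison added after the values had been seen, 9 of the 62 pooled candidates (14.5%) lay in 3' UTRs, in the regions of elav, fne, Rbp9, pros and Syt1, against 3.08% of all pooled candidates. The shares were 11.9% against 2.27% in replicate 1 and 18.8% against 4.91% in replicate 2. The genes behind them differed: elav held more of these candidates than any other gene in the pooled list and in replicate 2, but none in replicate 1. The pooled 3' UTR candidates of elav had no region within 200 bp in replicate 1. Annotated 3' UTRs took up 19.0% of the sequence of the neural regions and 4.87% of the main chromosomes. Whether this accounts for the shares of candidates in 3' UTRs was not tested.

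All 10 reproducible summits had a region within 200 bp in both replicate lists, as had 2368 of the 2413 reproducible summits (98.1%). Over all of these the median rank was 1229 in replicate 1 and 1333 in replicate 2. The neural summits lay on both sides of these medians, between 197 and 3900 in replicate 1 and between 31 and 6600 in replicate 2. Those at elav (rank 89), at CG18428 (rank 96) and in the pros 3' UTR (rank 440) were above the medians in both. The elav and CG18428 summits stood higher in replicate 2, and the pros 3' UTR summit in replicate 1. The intronic pros summit was the lowest in replicate 2.

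**Figure D4:**
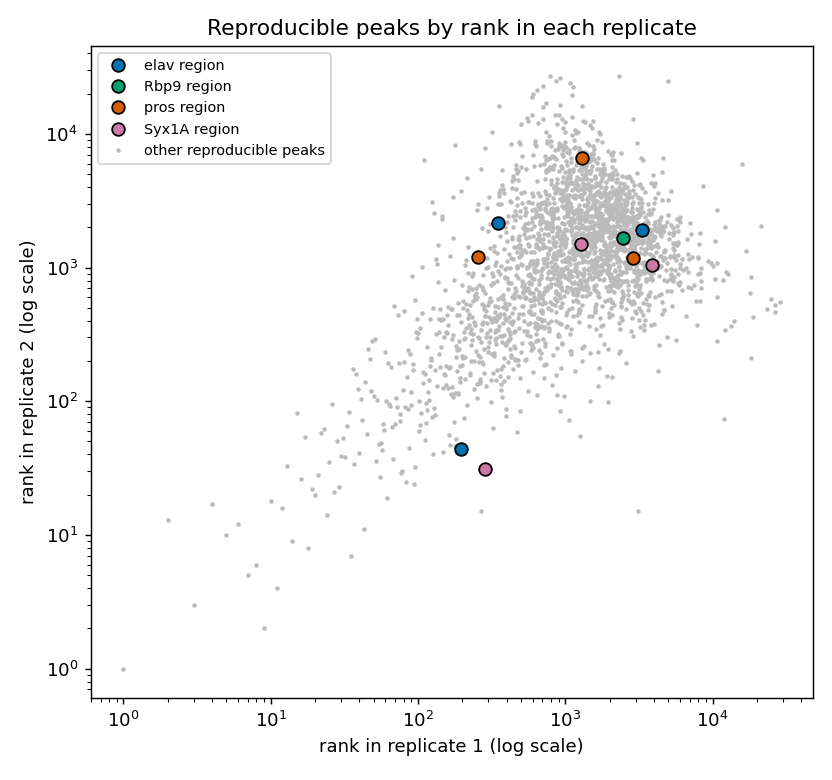
Rank in replicate 1 against rank in replicate 2, both on logarithmic axes, for the 10 neural summits and for all reproducible summits found in both replicate lists. The elav start-site peak (197 and 44) and the CG18428 peak (287 and 31) lie at the high end of both, although their ranks differ between the replicates. The elav rank 616 peak (347 and 2171) and the pros intron peak (1291 and 6600) rank higher in replicate 1.

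In the plot of replicate ranks, the reproducible peaks nearest to the strongest one of each gene were found by the sum of the absolute differences in log10 rank over the 2 replicates, and each is named by the nearest start. Nearest to the elav peak were those at E23 (sum 0.0609), Sox14 (0.106) and wde (0.107), and nearest to the Rbp9 region's peak were those at Caf1-180 (0.0131), Neurl4 (0.0272) and CG4098 (0.0299). The pros 3' UTR peak was closest to those named by Snoo (0.0686), RpS15Aa (0.108) and MFS10 (0.132), the first 36193 bp from the Snoo start. For the CG18428 peak near Syx1A the sums were larger, for those named by Hsc70-4 (0.348), tRNA:Lys-TTT-1-1 (0.359) and E23 (0.376). The tRNA:Lys-TTT-1-1 one lay 1884 bp from that start.

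Within 100 bp of the summits, 15 motifs were searched on both strands. GAGAG occurred at 4 of the 10 neural summits, against 28.8% of all reproducible summits and 24.5% of 14890 lower-ranked pooled candidates. All 3 elav summits and the pros 3' UTR summit held it, the last with 10 matches. CGATA, which also forms part of the DNA replication-related element TATCGATA, occurred at 2 of the 10 (elav rank 1570 and pros rank 440), against 34.7% of reproducible summits and 22.4% of lower-ranked candidates. TATCGATA itself occurred at none of the 10, against 5.68% and 0.786%. The M1BP core GGTCACAC occurred at the Syx1A start alone, outside the 80 bases shown, against 5.01% and 1.05%. TATAAA and CACACA occurred at 4 of the 10 each, against 26.2% and 17.4% for TATAAA and 22.7% and 21.1% for CACACA.

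The E-box CANNTG, bound by helix-loop-helix proteins, occurred at 5 of the 10 neural summits, against 63.9% of reproducible summits and 68.0% of lower-ranked candidates, and its proneural form CAGCTG at none, against 13.7% and 10.9%. ACAAT, the Sox core, occurred at 4 (46.8% and 41.4%). The Pho core GCCAT (32.0% and 39.2%), the initiator TCAGT (30.7% and 29.9%) and the homeodomain core TAATTA (11.9% and 9.95%) occurred at 2 each. CAGGTA of Zelda (4.6% and 4.71%), GTGGGAA of Su(H) (2.74% and 2.71%) and CATCNCTA (4.93% and 1.52%) occurred at none. Several counts fell in a narrower window: within 50 bp of the summit, GAGAG occurred at 1 of the 10 (14.5% of reproducible summits), CACACA at 1 (12.7%), TATAAA at 2 (12.8%), CANNTG at 1 (41.3%), GCCAT at 1 (19.2%), TAATTA at 1 (5.51%) and TCAGT at none (16.3%). ACAAT occurred at 3 (26.0%) there, while CGATA stayed at 2 (20.7%) and GGTCACAC at 1 (3.11%). A match describes the letters in this window and does not show a bound site. GC content had a median of 40.0% at the neural summits, from 24.9% at CG18428 to 51.2% at elav rank 616, against 40.3% at all reproducible summits and 45.5% at the lower-ranked candidates.

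Other neural genes, 77 in 4 lists chosen with earlier results of these data known are given beside these as a description. Of 22 neural stem cell and proneural genes, 5 (22.7%) had a reproducible summit in their region and 3 (13.6%) at a start. The highest were numb, a determinant of asymmetric division (signal value 189, 220 bp upstream of its start), brat, which limits neuroblast self-renewal (156), da, the partner of the proneural proteins (118, 60 bp upstream), and grh (116), whose summit lay nearer to olf186-M. Of 15 glial genes, 8 (53.3%) had one in their region and 2 (13.3%) at a start. These were led by moody, a receptor of the blood-brain barrier (358, 151 bp upstream), pnt (233, 229 bp upstream), nrv2 (157) and gcm2 (139), the last with its summit 47 bp from the start of GlcAT-S.

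Of 20 genes of neuronal differentiation and axons, 8 (40%) had a reproducible summit in their region and 2 (10%) at a start. The highest were the netrin gene NetB (signal value 327), the netrin receptor gene fra (299), tup (221) and the plexin gene PlexA (208). The highest NetB and fra summits lay inside those genes, 31575 and 9200 bp from their own starts. The starts of hog (1507 bp) and CG33752 (7436 bp) were nearer. The tup one lay 135 bp from the start of CG10602 and the highest PlexA one 101 bp from that of ATPsynbeta, both outside the listed gene. PlexA had 3 reproducible summits in its region, and the one at rank 840 lay 160 bp from its own start. Of 20 synaptic genes, 6 (30%) had one in their region and none at a start. brp, of the presynaptic active zone, led them (134, with the summit outside its body), followed by ChAT and VAChT, which share a summit (126). That shared summit lay 14456 bp from their own starts and 334 bp from that of lncRNA:CR46265. Rop (122) came next, and its summit lay 140 bp from the start of ens. The median region was 17.4 kb for the stem cell list, 17.8 kb for the glial, 49.0 kb for the axon and 32.8 kb for the synaptic list, all above the 11.6 kb of all genes. The corresponding shares of all genes are 32.3% by region and 9.43% at a start. By region, the share was 44.1% of genes with regions of 15 to 30 kb, where the stem cell and glial medians fall. It was 45.5% from 30 to 60 kb, where the axon and synaptic medians fall.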

How the data were processed

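Chromatin immunoprecipitation with sequencing gave 2 replicates of 1 group, numbered as in the labels. Per the deposited read-me texts, the authors called candidate regions for each replicate and for both pooled against a control alignment to dm6, then kept as reproducible the regions that passed an irreproducible discovery rate (IDR) threshold. Of the aligner, the peak caller and the IDR value, each is not given in the sources used here. The deposited signal value of each region, on a scale not stated, served for ranking alone. No use was made of the deposited −log10 q-value. The deposited summit offset gave the summit position, and coordinates are 1-based. Read depth is unknown, so no interval is given, and 0 columns of other samples were present.

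Genes and start sites came from Ensembl release 115 on the 7 main chromosomes without transposable elements: 18277 genes, 13968 of them protein-coding, with 23694 start positions. Summits were counted in the gene body plus 5 kb and within 250 bp of any start, and the replicates were matched within 200 bp. A summit outside start-site windows took its class from exons before introns, with UTRs named apart from coding exons. Lower-ranked candidates for the motif shares are the lower 50% of the pooled list that overlap no reproducible peak. Tools were Python 3.11.15, pandas 2.3.3, numpy 2.4.6 and matplotlib 3.10.9, and the counting was tested on simulated data. No test was made: the genes are described by counts beside all genes.

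The genes and lists were chosen with earlier results of these data known, and 2 listed symbols were brought to their annotated names, Delta and VGlut. Named were all 10 genes, every reproducible summit of their regions, otherwise the highest candidate of each list, the genes whose start lies within 250 bp of it or whose body holds it, the 3 peaks most alike in replicate ranks, and up to 4 genes of each context list by signal value. Weaker candidates at start sites and in 3' UTRs were named after their values were seen. Alternatives covered other flanks, windows, matching distances, stronger peaks, interval overlap, protein-coding genes and each replicate alone.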

Additional observations from a re-analysis of the deposited data

How the results depend on the processing

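Of the alternatives tried for the main counts, 27 stayed within 1.5 times the value reported and 5 did not. In the stronger 50% of the reproducible list, the neural regions held 4 summits in place of 10, and 1 gene in place of 2 (elav) had one at a start. Among regions within the 2413 highest of both replicates, they held 5. With a window of 100 bp, 1 gene (Syx1A) had a reproducible summit at a start. Within 50 bp, 6 of the 10 summits were matched in both replicates (74.1% of all reproducible summits). Fewer regions or a narrower window enter these settings by construction. With each replicate alone, 4 to 5 genes had a summit in their region, 8 to 10 summits lay there, 2 to 3 genes had one at a start, and 4 to 5 had a candidate there. repo entered with either replicate alone, Rbp9 left with replicate 1 alone, and pros gained a start-site summit with replicate 1 alone. Without flanks 3 genes (6.53% of all genes) had a summit, with 2 kb 3 (22.0%) and with 10 kb 6 (43.9%), nSyb and Syt1 being added. Among protein-coding genes the share with a start-site summit was 11.6%, and that with a summit in the region was 35.0%. For these genes it was 13.1% for the nearest start to a reproducible summit and 47.0% for a pooled candidate at a start. For a candidate at a start in both replicate lists it was 33.3%. Windows for the candidates found in both replicates were chosen after seeing the data. For single motifs, 21 values stayed within 1.5 times and 9 did not: the 7 given in the report for 50 bp, and CAGGTA and CATCNCTA, each at 1 summit in place of none within 150 bp. No paired analysis was possible because the series holds 1 group. The unknown read depth, the capped candidate lists and 2 replicates limit every value.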
